A study of Mus musculus with 6 samples.

Results

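RNA-seq of mouse glioblastoma (GBM) tumors was examined for the genes that encode receptors of the transmitters glutamate and GABA. Members were the genes whose symbol is that of an AMPA (Gria), kainate (Grik), NMDA (Grin), delta (Grid) or metabotropic (Grm) glutamate receptor subunit, or of a GABA-A (Gabr) or GABA-B (Gabbr) receptor subunit. The deposited table held 43 of them among 16729 genes, in 10 families, and 42 passed the filter on low counts. The 1 that did not pass was Gabrr1, with 3 to 7 counts per library. Gabra6, Gabrp, Gabrr3 and Grm6 are not analysed here.

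The tumors grew from mG7080 cells, a sphere culture from mice with mutations that include p53 and Nf1, after injection into the brain of C57BL/6 hosts (C57BL/6J in the methods). Hosts were female and 6 to 8 weeks old by the methods, although a reporting form gives an older range, and they were either wild type (WT, 3 libraries) or knockout for Esm1 (KO, 3 libraries), the gene of the endothelial protein Endocan. The deletion was in the host, for which the labels name no Cre driver or cell type, while the injected line was the same in both groups. RNA came from resected tumor tissue, so each library can hold transcripts of tumor cells and of host brain cells together. How much came from each was not measured.

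AMPA, kainate and NMDA receptors are cation channels opened by glutamate, and metabotropic glutamate receptors act through G proteins. GABA-A receptors are chloride channels built from 5 subunits, usually of the alpha, beta and gamma or delta kinds, and GABA-B receptors are dimers that act through G proteins. Most of these subunits are best known from neurons, but astrocytes and oligodendrocyte precursors carry a part of them, and neurons form glutamatergic synapses onto glioma cells. An RNA measurement in bulk tissue does not separate these sources: fewer cells of a type and less RNA per cell cannot be told apart.

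The libraries held 17632070 to 22241832 counted reads, and 1 read was worth 0.0445 to 0.057 CPM (counts scaled to the library size, with TMM factors). Counts of the targeted gene were read beside the labels. They cannot check a label, because the deletion was in the host and tumor cells may also supply Esm1 reads. In the paper, medium of human gliomasphere lines held almost no Endocan protein, and ESM1 RNA of human tumors was found in endothelial cells. Esm1 of the injected mouse line alone is not given in the sources used here. For Esm1, the counts were 25 in WT 1, 21 in WT 2 and 82 in WT 3, but 1 in KO 1, 24 in the library labelled KO 2 and 4 in KO 3. The library labelled KO 2 thus had as many Esm1 counts as WT 1 and WT 2, and the study's own list of changed genes is headed by 4 libraries only (WT 1, WT 2, KO 1 and KO 3). Receptor genes are given over all 6 libraries as labelled, over those 4, and over the 5 libraries without the one labelled KO 2. Over all genes, log2 CPM of the library labelled KO 2 correlated with WT 1, WT 2 and WT 3 at r = 0.984, 0.966 and 0.977. With KO 1 and KO 3 it correlated at 0.921 and 0.889. The fits over 4 and over 5 libraries thus leave out the library labelled KO that lies nearest to WT. Their p-values do not hold the full spread between KO tumors as labelled, and can be too small.

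The libraries also differed in their cell type markers. The 16 neuron markers (Snap25, Syt1, Rbfox3 and others) summed to 7238, 2404 and 4223 CPM in WT 1, WT 2 and WT 3, and to 15705, 6221 and 18849 CPM in KO 1, the library labelled KO 2 and KO 3. The 10 proliferation genes ran the other way, at 1189 to 2129 CPM in WT hosts and at 123, 1318 and 35.2 CPM in the same order of KO libraries. Oligodendrocyte precursor and proneural tumor markers (10 genes) summed to 3247 to 4048 CPM in WT hosts, 1336 in KO 1, 4267 in the library labelled KO 2 and 939 in KO 3. Astrocyte markers (12 genes) summed to 3512 to 4736 CPM in WT and 5173 to 7516 CPM in KO hosts, and myelinating oligodendrocyte markers (10 genes) to 1387 to 3562 and 3385 to 7883 CPM. Microglia and macrophage markers summed to 1015 to 1091 CPM in WT and 653 to 1422 CPM in KO hosts, endothelial markers to 202 to 268 and 229 to 304 CPM, and the 7 cerebellar neuron markers in the table to only 44.0 to 57.4 and 51.7 to 69.1 CPM. No marker gene was at 0 in any library, so every library held transcripts of neurons and glia beside proliferation genes, in unequal amounts. The part of these cell types in the receptor values below was not tested.

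Receptor transcripts spanned a wide range of levels. On the deposited FPKM scale, which divides by gene length and lets genes be compared, the mean level over the 6 libraries ran from 0.113 (Gabrr1) to 116 (Gabbr1), with 23 members at or above 10 and 3 below 1. After Gabbr1, an obligate subunit of the GABA-B receptor, came Grin1 at 83.7, the NMDA subunit every NMDA receptor needs, and Gria2 at 81.3, the AMPA subunit that keeps calcium out. Grik5 at 53.9 and Gria1 at 49.2 were also among the highest. The rho subunits Gabrr1 (0.113) and Gabrr2 (0.251), best known from the retina, and the epsilon subunit Gabre (0.360) stood at the bottom. The spread between libraries of a group was wide: Grin1 was at 50.9 ± 23.8 FPKM in WT hosts and 116 ± 48.5 in KO hosts (SD, n = 3), yet its 6 libraries overlapped between groups.

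Over all 6 libraries, 39 of 42 members had a higher fitted level in KO hosts and 3 a lower one, with a median log2 fold change of 1.30 against -0.02 over all 16166 genes tested. None passed edgeR's quasi-likelihood test after Benjamini-Hochberg adjustment (lowest adjusted p 0.184), nor did any gene of the table (0% called higher and 0% called lower). At an unadjusted p under 0.05, 18 members were higher and 0 lower, where 15.2% and 11.9% of all genes were. With the other tools, DESeq2 called 5 members higher and 0 lower, where 5.03% and 2.8% of all genes with an adjusted p were called, and the exact test of edgeR 3 higher and 0 lower, beside 0.662% and 0.501% of all genes. Limma-voom called 0 members, and 0 genes in all, in either direction. All 3 KO libraries lay above all 3 WT libraries for 6 members (Grik1, Grik5, Grin2c, Grin2d, Grm2 and Gabra2), against 13.2% of all genes.

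Over the 4 libraries, 5 members rose in KO hosts and 0 fell. They were Gria3, Grin2c, Grm3, Gabra2 and Gabrd, beside 2.87% of all 16183 genes called higher and 13.9% called lower. The median log2 fold change of the 42 members was 1.49, against -0.03 over all genes. A further 21 members had an adjusted p between 0.05 and 0.1, which is not a call. The share of all genes in that range was not taken. KO 1 and KO 3 lay above WT 1 and WT 2 for 37 members and below them for 2, where 39.5% and 41.6% of all genes were so placed. Leaving out the library labelled KO 2 from the 6 gave 30 of 41 members higher and 0 lower (lowest adjusted p 0.00798, median log2 fold change 1.66), but there 24.5% of all genes were called higher and 28.3% lower.

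The count of 5 rested on single libraries. It was 36 of 41 without WT 1, where 25.9% of all genes were called higher and 27.5% lower. Without WT 2 it was 19 of 42, and 2 members, Gabre and Gabrq, were called lower, beside 6.91% and 12.5% of all genes. It was 2 without KO 1 (Gabra2 and Grm2, beside 0.503% of all genes called higher and 5.62% lower) and 0 without KO 3 (0% and 1.54% of all genes). Over the same 4 libraries DESeq2 called 32 members higher and 1 lower, against 16.6% and 19.5% of all genes. The exact test of edgeR called 31 and 2, against 16.2% and 20.2%. No member passed a fold change above 4 together with the adjusted p, as 0.451% of all genes did in the higher direction. WT 1 exceeded WT 2 for 41 of 42 members, by a median of 2.41 times against 0.989 times over all genes, so receptor transcripts differed within WT hosts as well. For 34 members, the value of the library labelled KO 2 fell between the lowest and the highest WT value, for 7 it was above and for 1 below. The shares of all genes so placed were not taken.

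**Figure D1:**
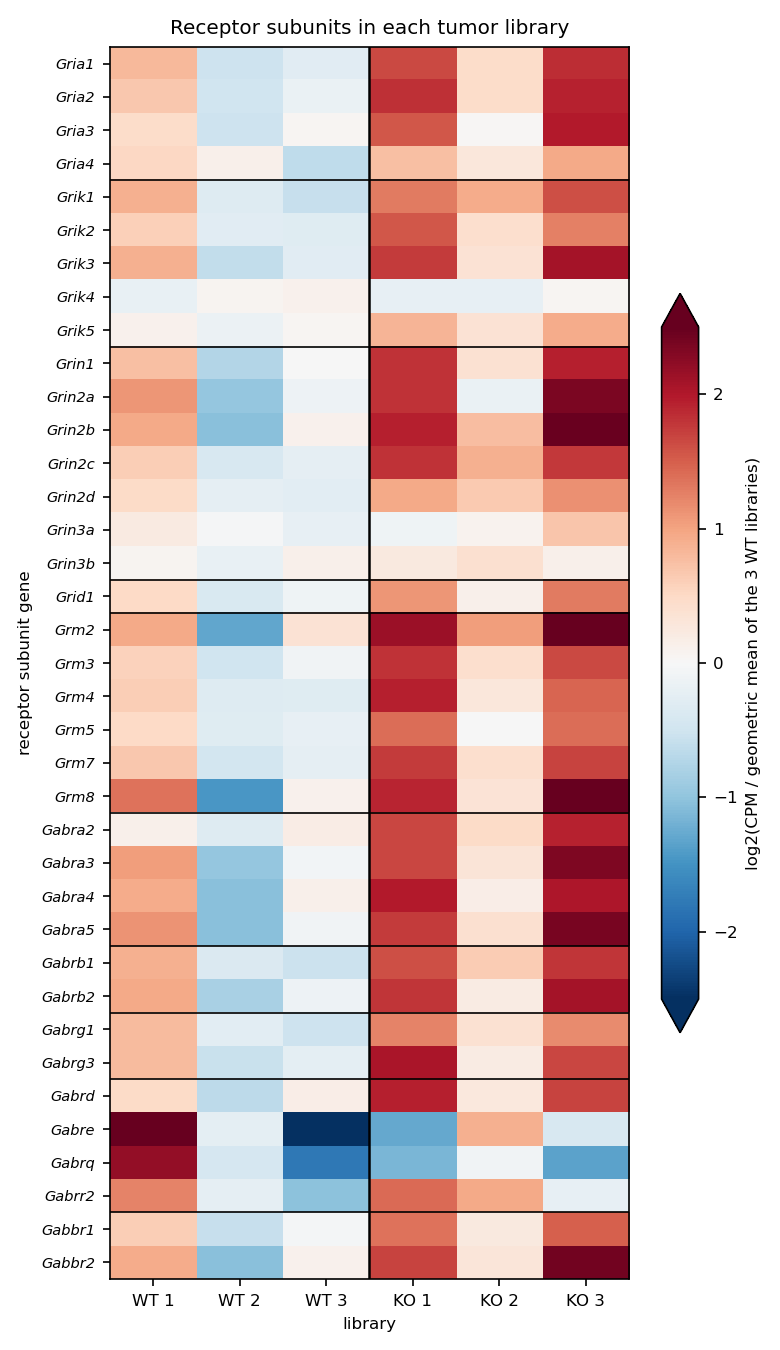
Level of the receptor genes described here (rows, by family) in the 6 libraries (columns), as the log2 of its CPM over the geometric mean of the 3 WT libraries, with colours ending at 2.5 in either direction. KO 1 and KO 3 are the darkest red columns, the library labelled KO 2 is pale, WT 1 is redder than WT 2, and the rows of Grik4, Grin3a and Grin3b stay pale while Gabre and Gabrq are reddest in WT 1.

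**Figure D2:**
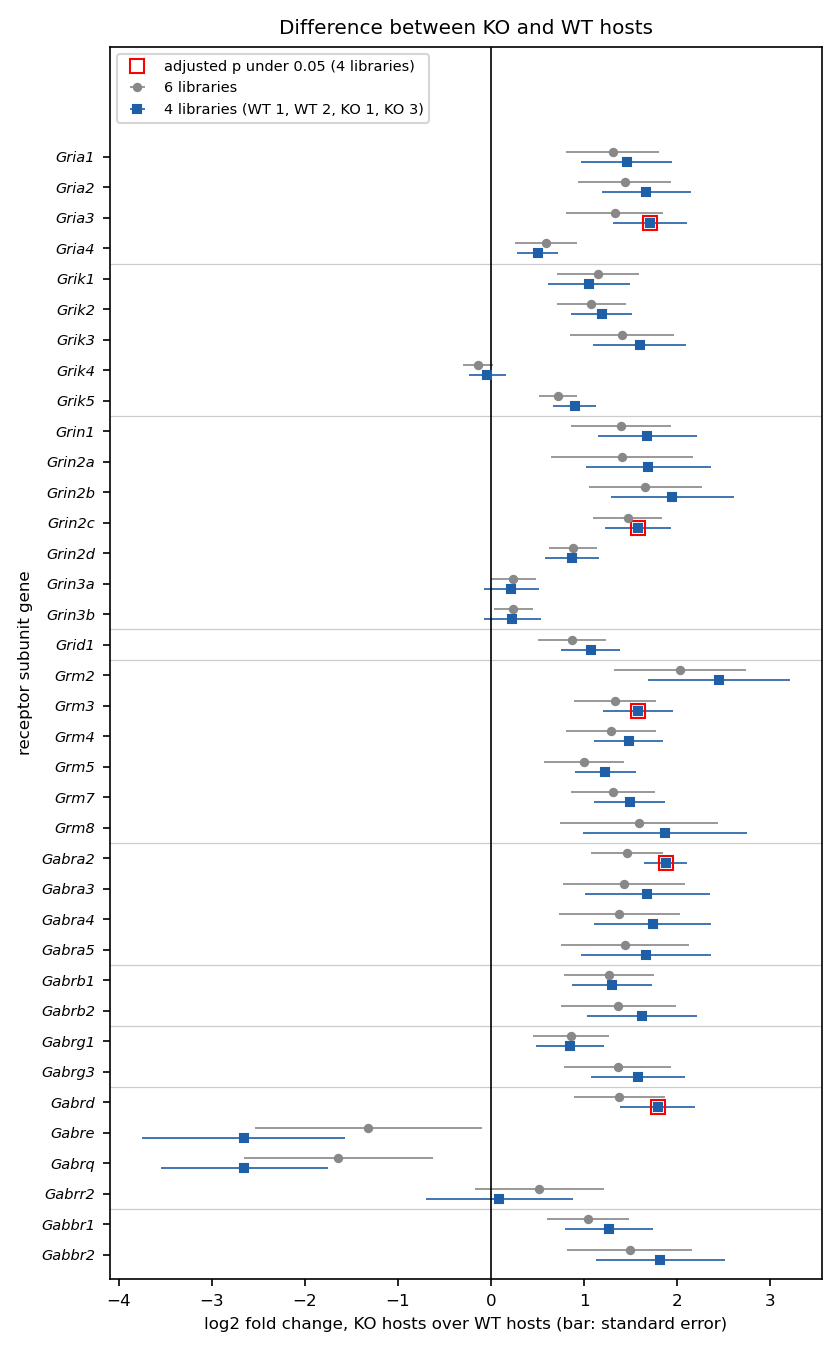
Log2 fold change of the receptor genes described here, KO over WT hosts, with its standard error, over 6 libraries (grey) and over 4 libraries (blue). Red squares mark the 5 genes with an adjusted p under 0.05 over 4 libraries, and all points except those of Grik4, Gabre and Gabrq lie right of 0 in both fits.

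For each gene below, CPM values stand in the order WT 1, WT 2, WT 3 and then KO 1, the library labelled KO 2 and KO 3. Log2 fold changes are KO over WT with the standard error, and adjusted p-values come from edgeR over all genes tested. As no member passed over 6 libraries, a gene is said to have risen only where it passed over 4. The fit over 5 libraries, without the one labelled KO 2, called many more members and many more genes, and its log2 fold changes and adjusted p-values close each family.

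AMPA receptors carry most fast excitation. Gria2 was the AMPA gene with the highest level per length, and read 469, 208 and 262 CPM in WT hosts and 1048, 403 and 1119 CPM in KO hosts. The groups overlapped through the library labelled KO 2, and the log2 fold change was 1.44 ± 0.50 over 6 libraries (adjusted p 0.184) and 1.67 ± 0.48 over 4 (adjusted p 0.0653). Gria1, a subunit of forebrain excitatory neurons, read 272, 108 and 128 against 489, 215 and 562 CPM, with 1.31 ± 0.50 and 1.46 ± 0.49 (adjusted p 0.184 and 0.0806). Both genes thus had the same order of libraries, with KO 3 highest and WT 2 lowest. Gria3, which was placed with glial or tumor subunits but is also made by neurons, read 158, 80.4 and 119 CPM in WT and 335, 117 and 453 CPM in KO hosts. It rose by 1.71 ± 0.40 over 4 libraries (adjusted p 0.0491) and gave 1.33 ± 0.52 over 6 (adjusted p 0.184), the library labelled KO 2 lying just below WT 3. Gria4, the AMPA subunit of oligodendrocyte precursors and of interneurons, varied least in the family. It read 119, 91.2 and 53.7 against 141, 102 and 160 CPM, a log2 fold change of 0.59 ± 0.33 over 6 libraries (adjusted p 0.233) and 0.50 ± 0.22 over 4 (adjusted p 0.133). Over 5 libraries Gria1 (1.64, adjusted p 0.0229), Gria2 (1.8, 0.0148) and Gria3 (1.73, 0.0113) passed, and Gria4 (0.78, 0.0875) did not.

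Kainate receptors are assembled from the low affinity subunits Grik1, Grik2 and Grik3 and the high affinity subunits Grik4 and Grik5, which form a channel only together with the former. Grik5 had the highest level of the family per length and read 171, 143 and 163 CPM in WT and 285, 204 and 302 CPM in KO hosts. Its groups did not overlap, and the log2 fold change was 0.72 ± 0.20 over 6 libraries (adjusted p 0.184) and 0.90 ± 0.23 over 4 (adjusted p 0.0540). Grik4 was nearly flat, at 32.2, 38.3 and 39.4 CPM in WT and 31.6, 31.6 and 37.5 CPM in KO hosts. Its highest library was 1.25 times its lowest, the smallest spread of all tested members, and its log2 fold change was -0.14 ± 0.16 over 6 libraries (adjusted p 0.505) and -0.04 ± 0.20 over 4 (adjusted p 0.885). The other 3 kainate genes had log2 fold changes of 1.08 to 1.41 over 6 libraries and 1.05 to 1.60 over 4, with none called in either fit. Over 5 libraries Grik2 (1.35, adjusted p 0.0177), Grik3 (1.78, 0.0221) and Grik5 (0.89, 0.0106) passed, while Grik1 (1.32, 0.0528) and Grik4 (-0.08, 0.684) did not.

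NMDA receptors join the obligate Grin1 with Grin2 subunits, which set the kinetics, or with Grin3 subunits. Grin1 read 291, 104 and 171 CPM in WT and 604, 224 and 669 CPM in KO hosts, a log2 fold change of 1.40 ± 0.54 over 6 libraries (adjusted p 0.184) and 1.68 ± 0.53 over 4 (adjusted p 0.0743). Its exons overlap those of Grin1os on the other strand, and because the strand setting of the counting is not given in the sources used here, reads of the pair cannot be told apart. Grin2b, the subunit that prevails in the young forebrain, had the largest log2 fold change of the NMDA genes in both fits. It read 52.9, 13.2 and 29.3 against 105, 46.4 and 152 CPM, with 1.66 ± 0.61 over 6 libraries (adjusted p 0.184) and 1.95 ± 0.66 over 4 (adjusted p 0.0826). Grin2a, the subunit that joins later in development, read 17, 4.08 and 7.25 against 27.7, 7.12 and 40.8 CPM, with 1.41 ± 0.76 and 1.69 ± 0.67 (adjusted p 0.228 and 0.110). KO 1 and KO 3 were the highest libraries for each of these genes.

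Grin2c, known from the cerebellum and from astrocytes, rose by 1.58 ± 0.35 over 4 libraries (adjusted p 0.0454). It read 35.8, 17.7 and 20.0 CPM in WT and 81.9, 43.2 and 79.4 CPM in KO hosts, so all KO libraries were above all WT libraries, and gave 1.47 ± 0.37 over 6 (adjusted p 0.184). The 12 astrocyte markers had a median log2 fold change of 0.72 over the same 4 libraries, up to 2.03 for Slc1a2 (adjusted p 0.0746). Of them, 1 was called higher and 1 lower, beside 2.87% and 13.9% of all genes. Gja1, the astrocyte gap junction gene, rose (1.42 ± 0.33, adjusted p 0.0476). Gfap, the intermediate filament gene of reactive astrocytes, fell by 2.26 on the log2 scale (adjusted p 0.0343), the lowest value of the list. Grin3a, a subunit that lowers calcium flow and is made by young neurons and oligodendrocyte lineage cells, read 60.6, 50.4 and 44.8 against 47.7, 54.9 and 83.0 CPM. Its groups overlapped, with a log2 fold change of 0.24 ± 0.24 over 6 libraries (adjusted p 0.478) and 0.22 ± 0.30 over 4 (adjusted p 0.576). Grin2d and Grin3b, the remaining NMDA genes, had log2 fold changes of 0.87 and 0.23 over 4 libraries, with neither called there, and exons of Grin3b overlap those of Tmem259 on the other strand. Of the 7 NMDA genes, 5 passed over 5 libraries, with log2 fold changes from 1.02 for Grin2d (adjusted p 0.0241) to 2.02 for Grin2b (0.0260), while Grin3a (0.34, 0.314) and Grin3b (0.19, 0.520) did not. In that fit 24.5% of all genes were called higher and 28.3% lower.

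The delta receptors belong to the glutamate receptor family by sequence and organise synapses. Grid1 read 43.3, 23.6 and 28.4 CPM in WT and 66.1, 33.5 and 75.4 CPM in KO hosts, with 0.87 ± 0.37 over 6 libraries (adjusted p 0.185) and 1.07 ± 0.32 over 4 (adjusted p 0.0680). It passed over 5 libraries (1.16, adjusted p 0.0184).

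Metabotropic receptors are sorted by their coupling: Grm5 raises calcium, while Grm2 and Grm3, and Grm4, Grm7 and Grm8, lower cyclic AMP. Grm5, abundant in young astrocytes and in neurons, had the highest level of the family per length and read 171, 97.2 and 105 CPM in WT and 317, 120 and 317 CPM in KO hosts. The log2 fold change was 1.00 ± 0.43 over 6 libraries (adjusted p 0.186) and 1.23 ± 0.33 over 4 (adjusted p 0.0590). Grm3, the glial partner of the pair Grm2 and Grm3, rose by 1.58 ± 0.38 over 4 libraries (adjusted p 0.0497), from 54.8, 26.0 and 34.2 to 128, 48.6 and 114 CPM. Its value over 6 libraries was 1.33 ± 0.44 (adjusted p 0.184). Grm2, an autoreceptor of nerve endings, had the largest positive log2 fold change of all members in both fits, 2.03 ± 0.71 over 6 (adjusted p 0.184) and 2.45 ± 0.76 over 4 (adjusted p 0.0728). It read 16.2, 3.41 and 10.9 against 37.2, 17.4 and 70.5 CPM, and its groups did not overlap. Grm4, Grm7 and Grm8 had log2 fold changes of 1.48 to 1.87 over 4 libraries, with none called there. In the fit over 5, Grm2 (2.41, adjusted p 0.0230), Grm3 (1.66, 0.0120), Grm4 (1.65, 0.0147), Grm5 (1.35, 0.0139) and Grm7 (1.64, 0.0147) passed and Grm8 (2.02, 0.0595) did not.

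Among the GABA-A alpha subunits, which shape the benzodiazepine site and the place of the receptor, Gabra2 stood out. It read 25.5, 18.7 and 26.4 CPM in WT and 74.4, 32.5 and 88.7 CPM in KO hosts, with no overlap. It rose by 1.88 ± 0.23 over 4 libraries with the lowest adjusted p of the members (0.0343), and gave 1.46 ± 0.39 over 6 (adjusted p 0.184). Gabra4, found outside synapses with the delta subunit, read 64.8, 16.4 and 37.2 against 135, 38.0 and 138 CPM, with 1.38 ± 0.65 and 1.74 ± 0.63 (adjusted p 0.196 and 0.0930). Gabra5, the hippocampal tonic subunit, read 30.0, 6.67 and 13.0 against 46.4, 18.1 and 70.9 CPM, with 1.44 ± 0.69 and 1.67 ± 0.70 (adjusted p 0.199 and 0.123). WT 1 was higher than the library labelled KO 2 for Gabra4 and Gabra5 but not for Gabra2, whose standard error was the smallest of these genes in both fits. Over 5 libraries Gabra2 (1.8, adjusted p 0.00798), Gabra4 (1.79, 0.0311) and Gabra5 (1.83, 0.0437) passed.

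Beta subunits form the GABA site with an alpha subunit, and the gamma subunit places the receptor at the synapse. Gabrb2 read 197, 58.3 and 94.2 CPM in WT and 354, 118 and 433 CPM in KO hosts, with log2 fold changes of 1.37 ± 0.62 over 6 libraries and 1.62 ± 0.59 over 4 (adjusted p 0.191 and 0.0960). Gabrb1, placed with the glial or tumor subunits, read 19.8, 8.37 and 7.40 against 32.9, 16.6 and 37.1 CPM, with 1.27 ± 0.48 and 1.30 ± 0.43 (adjusted p 0.184 and 0.0789). Both had WT 1 above the library labelled KO 2, so their groups overlapped. Exons of Gabrb1 and Gabra4 overlap on opposite strands, as do those of Gabra5 and Gm9962, and reads of those stretches cannot be told apart either. Gabrg1, a gamma subunit seen in glia, read 32.4, 15.6 and 13.1 against 44.4, 24.3 and 42.6 CPM, with 0.86 ± 0.41 and 0.85 ± 0.37 (adjusted p 0.201 and 0.128). Gabrg3 had a log2 fold change of 1.58 over 4 libraries and was not called there. In the fit over 5, Gabrb1 (1.56, adjusted p 0.0295), Gabrb2 (1.76, 0.0295) and Gabrg3 (1.74, 0.0219) passed, and Gabrg1 (1.10, 0.0562) did not.

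The delta subunit replaces gamma in receptors outside synapses, while epsilon and theta occur in few brain regions. Gabrd read 33.5, 15.1 and 27.0 CPM in WT and 91.6, 28.8 and 77.4 CPM in KO hosts. It rose by 1.79 ± 0.40 over 4 libraries (adjusted p 0.0457), against 1.38 ± 0.49 over 6 (adjusted p 0.184), the library labelled KO 2 lying within the WT range. The epsilon gene Gabre and the theta gene Gabrq had the only large negative values among the receptors. Gabrq read 15.6, 2.53 and 0.987 CPM in WT and 1.54, 3.21 and 1.35 CPM in KO hosts, from 327, 49 and 20 counts against 27, 72 and 26. Gabre had 77, 9 and 2 counts in WT and 4, 23 and 8 counts in KO hosts (3.66, 0.465 and 0.0987 CPM against 0.228, 1.02 and 0.417). Both were highest in WT 1 and both were lower in WT 3 than in the library labelled KO 2, so the groups overlapped. The log2 fold change of Gabrq was -1.64 ± 1.02 over 6 libraries (adjusted p 0.272) and -2.65 ± 0.90 over 4 (adjusted p 0.0836), and without WT 1 it was 0.18 over the other 5 (adjusted p 0.835) and -0.82 over the other 3 of the 4 (adjusted p 0.190). For Gabre it was -1.32 ± 1.22 (adjusted p 0.432) and -2.66 ± 1.09 (adjusted p 0.117). Gabre did not pass the count filter without WT 1. In the fit without the library labelled KO 2, Gabrd passed (1.75, adjusted p 0.0118), Gabrq did not (-2.13, 0.174) and Gabre was not tested. Gabrr2 had 3 to 15 counts per library and a log2 fold change of 0.09 ± 0.79 over 4 libraries (adjusted p 0.937).

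GABA-B receptors pair Gabbr1, which binds GABA, with Gabbr2, which couples to the G protein. Gabbr1, the member with the highest level per length, read 515, 225 and 322 CPM in WT and 859, 398 and 940 CPM in KO hosts. Its log2 fold change was 1.04 ± 0.44 over 6 libraries (adjusted p 0.186) and 1.27 ± 0.47 over 4 (adjusted p 0.0983). For Gabbr2 the values were 1.49 ± 0.67 and 1.82 ± 0.69 (adjusted p 0.191 and 0.10), and its mean level was 36.7 FPKM against 116 for Gabbr1. Both passed over 5 libraries, at 1.35 for Gabbr1 (adjusted p 0.0262) and 1.89 for Gabbr2 (0.0337).

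Several GABA-A genes lie in clusters, and the values of neighbours are set side by side here without a test between them. On the X chromosome, in GENCODE vM21 positions on GRCm38, Gabre (chrX:72255999-72274803), Gabra3 (chrX:72432681-72656848) and Gabrq (chrX:72825178-72842602) follow each other. Gabra3, named here after its values were seen, read 95.0, 23.6 and 44.4 CPM in WT and 147, 58.0 and 234 CPM in KO hosts (log2 fold change 1.68 ± 0.67 over 4 libraries, adjusted p 0.114, and 1.82 over 5, adjusted p 0.0389), the opposite sign to both of its neighbours. None of these X chromosome genes was called over 4 libraries. Gabre and Gabrq were highest in WT 1, and their dependence on that library is given above. On chromosome 5, Gabrg1 (chr5:70751047-70842617) lies next to Gabra2 (chr5:70957597-71095849), which rose over 4 libraries while Gabrg1 had a log2 fold change of 0.85 against 1.88. The 250 bases before the start of these genes are shown to set neighbours side by side (RefSeq, GRCm38.p6, 5' to 3' on the strand of the gene). Capitals mark a GC box (GGGCGG) or a TATA box (TATAAA), read on either strand without overlap between the motifs. The windows are chrX:72274722-72274971 (minus strand) for Gabre, chrX:72656920-72657169 (minus) for Gabra3, chrX:72824928-72825177 (plus) for Gabrq, chr5:70842618-70842867 (minus) for Gabrg1 and chr5:71095850-71096099 (minus) for Gabra2. The stretch of the Gabre window nearest to the start lies within the GENCODE gene model, which begins further upstream than the RefSeq one.
Gabre: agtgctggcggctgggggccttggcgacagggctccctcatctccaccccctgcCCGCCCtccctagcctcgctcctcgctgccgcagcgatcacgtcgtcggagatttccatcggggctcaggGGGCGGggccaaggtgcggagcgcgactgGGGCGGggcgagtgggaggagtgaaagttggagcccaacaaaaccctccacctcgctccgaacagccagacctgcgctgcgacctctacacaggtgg
Gabra3: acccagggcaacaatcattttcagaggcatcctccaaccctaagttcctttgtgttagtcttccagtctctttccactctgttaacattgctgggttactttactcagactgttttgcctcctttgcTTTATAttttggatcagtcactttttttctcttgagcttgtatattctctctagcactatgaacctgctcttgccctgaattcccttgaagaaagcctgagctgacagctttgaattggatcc
Gabrq: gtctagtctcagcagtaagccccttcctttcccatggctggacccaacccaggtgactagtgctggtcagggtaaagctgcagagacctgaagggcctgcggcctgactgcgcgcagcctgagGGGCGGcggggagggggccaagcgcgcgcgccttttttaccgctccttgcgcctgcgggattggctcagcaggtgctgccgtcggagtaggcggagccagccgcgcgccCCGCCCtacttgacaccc
Gabrg1: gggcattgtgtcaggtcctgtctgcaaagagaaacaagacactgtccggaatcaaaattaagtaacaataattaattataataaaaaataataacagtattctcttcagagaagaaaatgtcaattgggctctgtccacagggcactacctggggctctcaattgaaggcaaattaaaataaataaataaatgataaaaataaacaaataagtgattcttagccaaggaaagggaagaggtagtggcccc
Gabra2: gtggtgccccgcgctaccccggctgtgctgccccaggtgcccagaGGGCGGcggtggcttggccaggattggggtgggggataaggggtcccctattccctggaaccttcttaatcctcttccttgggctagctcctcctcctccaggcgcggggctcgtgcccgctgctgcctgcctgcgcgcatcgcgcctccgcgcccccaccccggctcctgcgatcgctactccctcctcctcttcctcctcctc

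The window of Gabra3 held 0 CG pairs, 0 GC boxes and 1 TATA box, while those of Gabre and Gabrq held 21 and 19 CG pairs, 3 and 2 GC boxes and 0 TATA boxes. Gabrg1 had 1 CG pair and neither motif, and Gabra2 had 18 CG pairs and 1 GC box. Over all 32851 promoters of the table, the median number of CG pairs was 6 (quartiles 2 and 16), a GC box was in 32.7% and a TATA box in 12.4%. Of the 28 members with a promoter in the table, 17 held a GC box and 3 a TATA box. CG-rich windows belonged to genes on both sides (Gabra2 among those that rose, Gabrq and Gabre with negative values), and CG-poor windows to Gabra3 and Gabrg1. These matches describe the sequence and not binding.

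**Figure D3:**
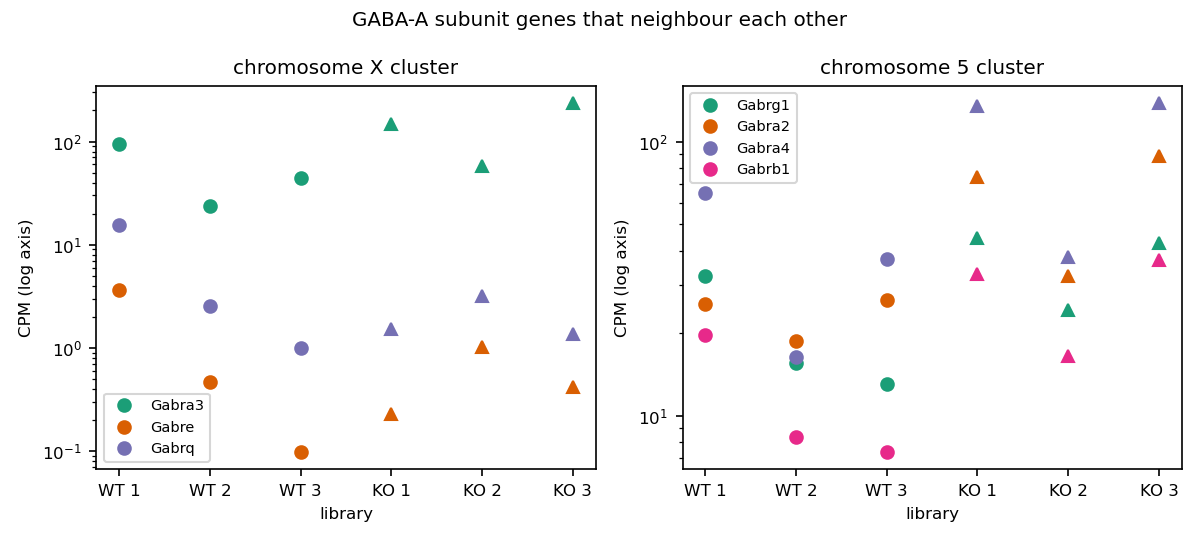
CPM (log axis) of the 3 GABA-A genes of the chromosome X cluster and of 4 genes of the chromosome 5 cluster in each library, circles for WT and triangles for KO hosts. Gabre and Gabrq are highest in WT 1, where they read 3.66 and 15.6 CPM, while Gabra3 and the chromosome 5 genes are highest in KO 1 or KO 3.

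Subunits best known from neurons were set beside those seen in glia or tumor cells. The class names come from what is known of the subunits, and which cells made these transcripts was not tested. Over 4 libraries, the median log2 fold change was -2.09 for oligodendrocyte precursor and proneural tumor markers. It was 0.72 for astrocyte, 1.12 for myelinating oligodendrocyte and 1.71 for neuron markers. The neuronal class (11 genes, among them Gria1, Grin1, Grin2a, Grin2b, Grm2, Gabra4, Gabra5, Gabrb2 and Gabrd) had log2 fold changes of 1.27 to 2.03 over 6 libraries, with a median of 1.38, and of 1.44 to 2.45 over 4, with a median of 1.68 and 1 of 11 called higher. The glial or tumor class (Gria3, Gria4, Grin2c, Grin3a, Grm3, Grm5, Gabrg1 and Gabrb1) had values of 0.24 to 1.47 over 6, with a median of 1.14, and of 0.22 to 1.71 over 4, with a median of 1.27 and 3 of 8 called higher. The 23 members of neither class had medians of 1.08 and 1.19, with 1 called. Without the library labelled KO 2, 10 of 11 neuronal and 5 of 8 glial or tumor subunits were called higher, at medians of 1.76 and 1.46. None of either class was called lower in these fits. Of all genes, 2.87% were called higher and 13.9% lower over 4 libraries. Without the library labelled KO 2 these shares were 24.5% and 28.3%. The medians over 4 libraries moved with single WT libraries, to 2.88 (neuronal) and 1.87 (glial or tumor) without WT 1 and to 1.00 and 0.85 without WT 2.

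In summed CPM, the neuronal class read 1373, 428 and 681 in WT and 2521, 923 and 2977 in KO hosts, and the glial or tumor class 652, 387 and 398 against 1127, 527 and 1286. From WT 2 to KO 3, the lowest and the highest library of both sums, the neuronal class differed 6.95-fold and the glial or tumor class 3.32-fold. The share of the glial or tumor class in the summed FPKM of both classes was 28.8%, 42.3% and 31.9% in WT hosts (34.3% ± 7.09, SD, n = 3) and 27.6%, 32.9% and 27.1% in KO hosts (29.2% ± 3.19). This difference was within the spread of the libraries (exact two-sided permutation test, p = 0.3, adjusted p 0.629 over 11 shares), and 3 libraries against 3 cannot give a p below 0.1. The smaller median of the glial or tumor class stood beside a wide range: Gria3 and Grin2c were among the members that rose, while Gria4, Gabrg1 and Grin3a were at 0.85 or less over 4 libraries.

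To set the subunits against the neuron content of each library, the CPM of each was divided by the summed CPM of the 16 neuron markers, none of which is a receptor subunit. Grin1 read 40.2, 43.4 and 40.5 CPM per 1000 CPM of neuron markers in WT and 38.5, 36.0 and 35.5 in KO hosts, so that a 6.42-fold range over libraries became 1.22-fold, the narrowest of all members. Gria2 likewise went from 5.38-fold to 1.46-fold, and Gabrb2 from 7.42-fold to 1.44-fold. Over the 42 tested members, the median ratio of highest to lowest library was 5.29 before the division and 1.90 after it, and the range narrowed for 34 and widened for 8. The share of all genes whose range narrowed was not taken, and any gene that follows the neuron sum narrows on this division. It went from 8.14 to 1.5 in the median of the neuronal class and from 4.0 to 2.2 in that of the glial or tumor class. These ratios are a description, since the neuron sum and the subunits share the libraries.

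The 8 members whose range widened were Gria4, Grik4, Grik5, Grin2d, Grin3a, Grin3b, Gabrq and Gabrr2. Grik4 read 4.44, 15.9 and 9.33 CPM per 1000 in WT and 2.01, 5.09 and 1.99 in KO hosts, an 8.01-fold range. Gria4 read 16.5, 37.9 and 12.7 against 8.95, 16.4 and 8.50, and Grin3a 8.38, 21.0 and 10.6 against 3.04, 8.82 and 4.40. Each was highest per neuron marker in WT 2, the library with the smallest neuron marker sum. Of the 42 members, 27 were highest in WT 2 and 23 lowest in KO 3 on this scale. The neuron sum itself was lowest in WT 2 (2404 CPM) and highest in KO 3 (18849 CPM). The division alone thus moves any gene that varies less than the neuron markers toward this order. The share of all genes with this order was not taken. Grm2 went the other way, at 2.24, 1.42 and 2.58 against 2.37, 2.79 and 3.74, lowest in WT 2 and highest in KO 3. Gabra2 and Grin2c, which rose over 4 libraries in CPM, read 3.52, 7.76 and 6.26 against 4.74, 5.22 and 4.70, and 4.94, 7.37 and 4.73 against 5.21, 6.95 and 4.21, so their groups overlapped per neuron marker.

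**Figure D4:**
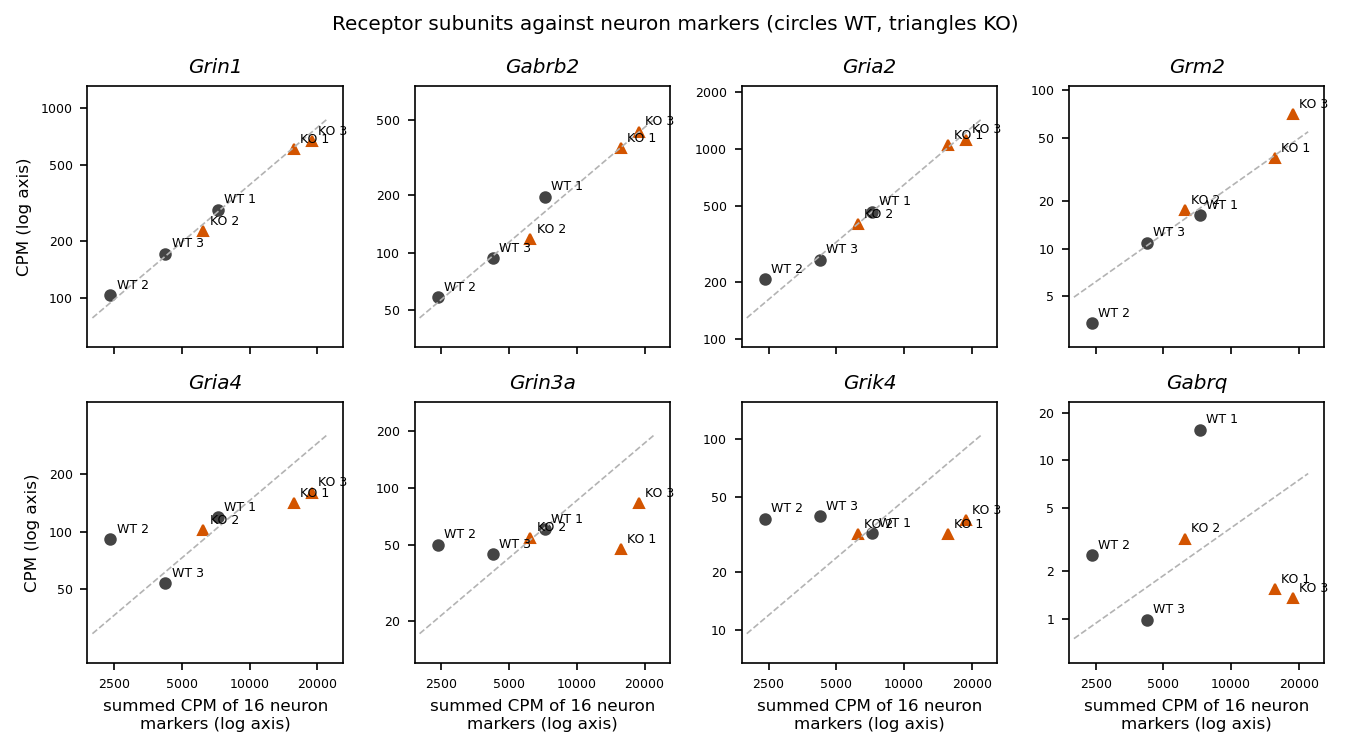
CPM of 8 receptor genes against the summed CPM of 16 neuron markers in each library, both on log axes, with circles for WT and triangles for KO hosts. The dashed line is the median ratio over the 6 libraries: Grin1, Gabrb2 and Gria2 lie along it, Grm2 does apart from WT 2, while Gria4, Grin3a and Grik4 stay flatter and Gabrq is highest in WT 1.

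The make-up of a receptor family can differ where its total does, and shares of summed FPKM were compared for 11 such mixtures. Gria2 made up 40.7%, 37.3% and 41.0% of AMPA transcripts in WT hosts and 46.6%, 42.8% and 43.3% in KO hosts (39.7% ± 2.06 and 44.2% ± 2.09, SD, n = 3). Grik4 made up 17.2%, 22.8% and 21.0% of the sum of Grik4 and Grik5 in WT and 10.9%, 14.6% and 12% in KO hosts (20.3% ± 2.87 and 12.5% ± 1.90). The groups of both shares did not overlap, which gives the smallest p the design allows (exact permutation test, p = 0.1, adjusted p 0.55 over 11 shares), and neither passed. Groups without overlap already place the library labelled KO 2 on the KO side, so its position in both shares adds nothing further. Gria4 read 13.0%, 20.6% and 10.6% of AMPA transcripts against 7.85%, 13.6% and 7.78%.

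Among the Grin2 subunits, Grin2c held 32.9%, 41.0% and 33.9% in WT and 39.3%, 41.6% and 31.2% in KO hosts, and Grin2b 31.7%, 20.0% and 32.4% against 32.8%, 29.1% and 39.0%. Their shares overlapped, as did those of Grin2a and Grin2d (exact permutation p from 0.3 to 1 for the 4 subunits). Gabra2 made up 8.75%, 22.7% and 18.0% of alpha subunit transcripts in WT against 14.5%, 18.2% and 13.6% in KO hosts. WT 1 and WT 2 differed more in the Gabra2 share than the group means did (16.5% and 15.5%). Gabrg1 held 16.4%, 25% and 16.7% of gamma transcripts against 14.1%, 20.0% and 12%, with overlap. Gria2 led the AMPA genes in each of the 6 libraries.

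**Figure D5:**
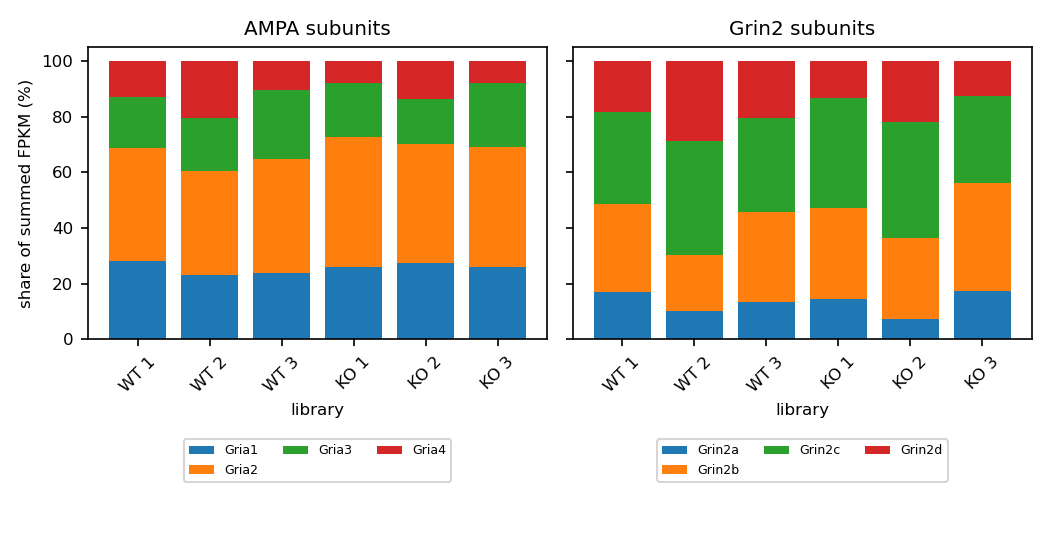
Share of each subunit in the summed FPKM (%) of the AMPA and Grin2 subunits in each library, as stacked bars that add up to 100. Gria2 takes 37.3% to 46.6% of the AMPA bars, and the Grin2b and Grin2d segments of WT 2 differ most from the other WT libraries.

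Partners of these receptors were read from lists of the same pathways. Of 17 auxiliary and anchoring genes of AMPA and kainate receptors, 3 rose over 4 libraries (Cacng8, Cnih2 and Shisa7) and 0 fell, with a median log2 fold change of 1.44. Over the same libraries, 2.87% of all genes were called higher and 13.9% lower. The lowest value was that of Cacng4, a TARP of oligodendrocyte precursors, at -1.60 ± 0.39 (adjusted p 0.0509), which read 49.3, 57.8 and 61.9 CPM in WT and 24.1, 60.5 and 11.3 CPM in KO hosts. The highest was Cnih3, an AMPA export factor, at 2.19 ± 0.65 (adjusted p 0.0686), with 28.0, 7.75 and 13.4 against 58.9, 22.1 and 105 CPM. Of 15 postsynaptic scaffold genes, 3 rose (among them Shank1 and Homer2) and 1 fell (Homer3), with a median of 1.55. Homer3 fell by 1.09 ± 0.24 on the log2 scale (adjusted p 0.0453), from 36.4, 51.7 and 43.8 to 22.0, 38.4 and 19.6 CPM, while Dlgap1 had the highest value of the list, 2.08 ± 0.52 (adjusted p 0.0537).

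On the GABA side, 0 of 9 receptor partners in the table passed over 4 libraries in either direction, with a median of 0.97, from -0.14 for Gabarap, a trafficking factor made by most cells, to 2.05 for Kctd16, an auxiliary subunit of GABA-B receptors. Neither did any of 12 genes of glutamate supply and uptake (median 0.97), from -0.65 for Slc17a6 to 2.43 for Slc17a7, the vesicular glutamate transporters of mainly subcortical and mainly cortical neurons. Slc17a7 read 412, 109 and 289 CPM in WT and 1044, 392 and 1771 CPM in KO hosts (2.43 ± 0.73, adjusted p 0.0701). Slc17a6 read 40.5, 6.31 and 4.59 against 12.3, 17.8 and 17.6 CPM (adjusted p 0.555), and was highest in WT 1, as Gabre and Gabrq were. None of the 9 genes of GABA supply and uptake passed (median 0.95), and the lowest value was 0.66 for Abat, which breaks GABA down. Beside these lists, 2.87% of all genes were called higher over 4 libraries and 13.9% lower. Over 6 libraries, 0 genes of all 5 lists passed, and 0 of all 16166 genes tested did.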

How the data were processed

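RNA-seq libraries of 6 tumors (3 per group, by the labels) were used. By the submitters' processing notes the authors used CASAVA 1.8.2, mm10 and edgeR, with the NEBNext Ultra kit in the labels. The methods of the paper give the Ovation Ultralow kit, a human genome build, uniquely mapped reads and HTSeq counts instead, and the strand setting is not given in the sources used here. The authors deposited whole-number read counts per gene, without normalization, and FPKM values, scaled by library size and gene length. Their fold change, p-value and normalized signal columns were not used. Total counts were 17632070 to 22241832 per library, and a count of 0 allows up to 3 counts (0.134 to 0.171 CPM, counting error only).

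The counts were tested with edgeR 4.0.16 under R 4.3.3 (filterByExpr with minimum count 10 and minimum total 15, TMM, quasi-likelihood F test, Benjamini-Hochberg over all genes tested), and called at an adjusted p under 0.05. The standard error is the log2 fold change over the square root of F. FPKM was used only to compare levels between genes and for shares, tested by exact permutation with scipy 1.17.1. By the design text each group was 3 mice, so p-values measure the spread between tumors of separate hosts. Alternatives were scaling by RLE or by the upper quartile, no filter, a mean count of at least 10, DESeq2 1.42.0, edgeR's exact test, limma-voom (limma 3.58.1), a replicate block, each library left out, and a fold change above 4.

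Same-numbered libraries did not all deviate together (r = 0.525, 0.576 and -0.191), so the main fit has no block. Members, lists and the 4-library comparison were chosen with earlier results of these data known. Named genes were the highest member per length of each of 10 families, all members of both classes, the 3 smallest p and the 3 largest folds in each direction over 4 libraries, and the lowest and highest gene of each pathway list. Some of the genes this rule names are not reported here. Exon overlaps were read from GENCODE vM21. The fit was also run on counts simulated with the same dispersion for every gene. As the spread of these tumors was not simulated, that run says nothing of the power here.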

Additional observations from a re-analysis of the deposited data

How the results depend on the processing

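Over 6 libraries, 0 members were called higher under the other scalings, filters and limma-voom, while DESeq2 called 5 (5.03% of all genes), edgeR's exact test 3 (0.662%), and fits without 1 library 0 to 30, the 30 without the library labelled KO 2. With the replicate block 0 were called as well, of 0 genes in all, and no call changed. Not every library correlated best with its own number (WT 3 and KO 3 at -0.191, WT 3 and the library labelled KO 2 at 0.25). No paired analysis was possible over 4 libraries because the groups share only number 1. Over 4 libraries, 5 members were called higher, 32 with DESeq2 (16.6% of all genes), 31 with the exact test (16.2%), 0 with a fold change above 4, and 0 to 36 without 1 library (0% to 25.9%). Lower calls over these 4 libraries were 0 (13.9% of all genes), 1 with DESeq2 (19.5%) and 2 with the exact test (20.2%). Without 1 library, the median of the neuronal subunits over 4 libraries ranged from 1.00 to 2.88, and that of the glial or tumor subunits from 0.85 to 1.87, both highest without WT 1 and lowest without WT 2.

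Named members that changed sign had small or uncertain values: over 6 libraries Grin3a at -0.04 without KO 3 (up to 0.39 without KO 1) and Gabrq at 0.18 without WT 1 (otherwise down to -2.15 without WT 3), and over 4 libraries Grik4 at 0.10 without WT 2 and 0.09 without KO 1 (-0.16 without WT 1), and Grin3a at -0.22 without KO 3 (0.58 without KO 1). The cause was not tested. Where a left-out library leaves a lone sample in a group, that sample is assumed to vary like the other group. Over 4 libraries, 4 of the 5 called members lost the call without KO 1 and all 5 without KO 3, with log2 fold changes near those of all 4 libraries. Without KO 1 these were 1.93 for Gria3, 1.57 for Grin2c, 1.5 for Grm3 and 1.67 for Gabrd, and without KO 3 they were 1.49, 1.62, 1.67 and 1.91, with 1.76 for Gabra2. Gabrr1 and Gabrr2 had few counts, and differences in them were not detectable at this depth.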
